A study of Mus musculus with 6 samples.

Results

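The genes described here coat the lipid droplet, help to form it, or release the fat stored in it. They are 10 genes, chosen by symbol: Fitm1, Fitm2, G0s2, Plin2, Plin4, Plin5, Cidea, Cideb, Cidec and Pnpla2. All 10 had at least 1 probe set that the array annotation pairs with that gene alone. Together these were 12 of the 45037 probe sets tested, with 2 each for Plin5 and Pnpla2. The mice were 3 of strain C57BL/6J mice and 3 of B6.C3H-6T. The latter is a congenic strain in which chromosome 6 carries DNA of C3H origin and the rest is C57BL/6J, and the series names it for its low serum IGF-1. Every animal was a chow-fed female, 8 weeks old, and its liver RNA went on an array of its own. How far the C3H segment reaches is not stated in the labels, and nothing says whether mice of a strain came from separate litters, so p-values measure the spread between these mice only.

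Hepatocytes store triglyceride in droplets that bud from the endoplasmic reticulum and are covered by a single phospholipid layer with proteins on it. Perilipins cover that surface and control the access of lipases, CIDE proteins let droplets fuse or load fat onto lipoproteins, and FIT proteins act in the endoplasmic reticulum where droplets emerge. The adipose triglyceride lipase, encoded by Pnpla2, takes the first step of hydrolysis, with the product of Abhd5 as its activator and that of G0s2 as its inhibitor. Several of these genes are known targets of the nuclear receptors PPAR alpha and PPAR gamma.

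The arrays had medians of 6.07 to 6.11 (log2). The defining hepatocyte gene Alb lay between 14.50 and 14.56 on all 6 arrays, and all 6 measured hepatocyte markers lay above the median probe set. Alb was at or next to the highest value of each array, so its evenness does not measure hepatocyte content. Since whole liver was used, fewer cells of a type and less RNA per cell cannot be told apart in any value below. Each difference below is the B6.C3H-6T mean less the C57BL/6J mean, in log2 units, with its standard error (SE). A probe set was called at a limma p under 0.05 after Benjamini-Hochberg adjustment across the whole array.

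The sequences just before the start sites of 3 of the genes are shown, because Fitm1 carried the only call and Plin2 and Plin5 were the only ones with a match to the core motif that nuclear receptors bind. They are RefSeq sequences of build GRCm38.p6, 250 bases up to the annotated start, written in the direction of the gene. Capitals mark exact matches, on either strand, to the nuclear receptor core motif AGGTCA, to CCAAT or to the GC box GGGCGG.
Fitm1, chr14:55575424-55575673, plus strand: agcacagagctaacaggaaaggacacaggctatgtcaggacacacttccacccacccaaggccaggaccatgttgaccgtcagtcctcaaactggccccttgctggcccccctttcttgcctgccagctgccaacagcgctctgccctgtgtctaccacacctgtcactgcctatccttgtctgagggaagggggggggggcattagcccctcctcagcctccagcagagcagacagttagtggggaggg
Plin2, chr4:86670060-86670309, minus strand: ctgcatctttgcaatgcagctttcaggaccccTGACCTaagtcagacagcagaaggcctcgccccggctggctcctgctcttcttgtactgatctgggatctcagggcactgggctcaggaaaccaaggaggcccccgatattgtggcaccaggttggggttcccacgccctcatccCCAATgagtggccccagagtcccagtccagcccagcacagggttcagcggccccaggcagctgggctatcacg
Plin5, chr17:56117549-56117798, minus strand: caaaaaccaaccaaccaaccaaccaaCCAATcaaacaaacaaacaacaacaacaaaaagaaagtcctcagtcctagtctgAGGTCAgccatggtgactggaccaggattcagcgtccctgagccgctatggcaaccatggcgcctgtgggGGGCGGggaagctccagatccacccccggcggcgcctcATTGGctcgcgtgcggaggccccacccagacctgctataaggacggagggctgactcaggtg
RefSeq windows matched 9 of the 10 genes, 11 windows in all, since Plin5 and Cidec have 2 start sites each, and those of Plin5 adjoin. AGGTCA, searched on both strands, was found in 2 of these 11 windows, and in 14.0% of 32841 windows over all genes. In Plin2 it lies on the other strand, from 218 to 213 bases before the start, and in Plin5 on the strand of the gene, from 170 to 165 bases before it. The spaced repeat AGGTCANAGGTCA of a PPAR response element, which contains AGGTCA, was in none of the 11 windows and in 0.0335% of all. GGGCGG was in 6 of 11 (32.7% of all), CCAAT in 3 of 11 (33.9%), TATAAA in 1 of 11 (Cideb; 12.4%) and CACGTG in 0 of 11 (6.02%). The Fitm1 window matched none of these motifs.

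Of the 12 probe sets, 1 was called, that of Fitm1, which fell in B6.C3H-6T. The background for a fall was 0.0466% of all probe sets and for a rise 0.0111%. At an unadjusted p under 0.05 the count was 7 lower and 1 higher, where all probe sets gave 4.82% lower and 5.74% higher. The same 8 probe sets were those in which the strains did not overlap, and the background for that was 6.44% lower and 9.58% higher. The 7 lower ones belong to Fitm1, Fitm2, G0s2, Plin2, Plin5 (both probe sets) and Pnpla2, and the higher one is the second probe set of Pnpla2. The median difference of the 10 genes, each by its probe set of highest mean, was -0.24, against 0.02 over all 18193 genes, and 7 of the 10 were below 0, against 43.9% of all genes. With each array centred on its own median the counts of droplet genes were 7 lower and 0 higher, while the share of lower probe sets among all those at an unadjusted p under 0.05 moved from 45.7% to 66.6%. The genes were chosen with earlier results of these data known, so the counts describe them and are no test of the group.

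**Figure D1:**
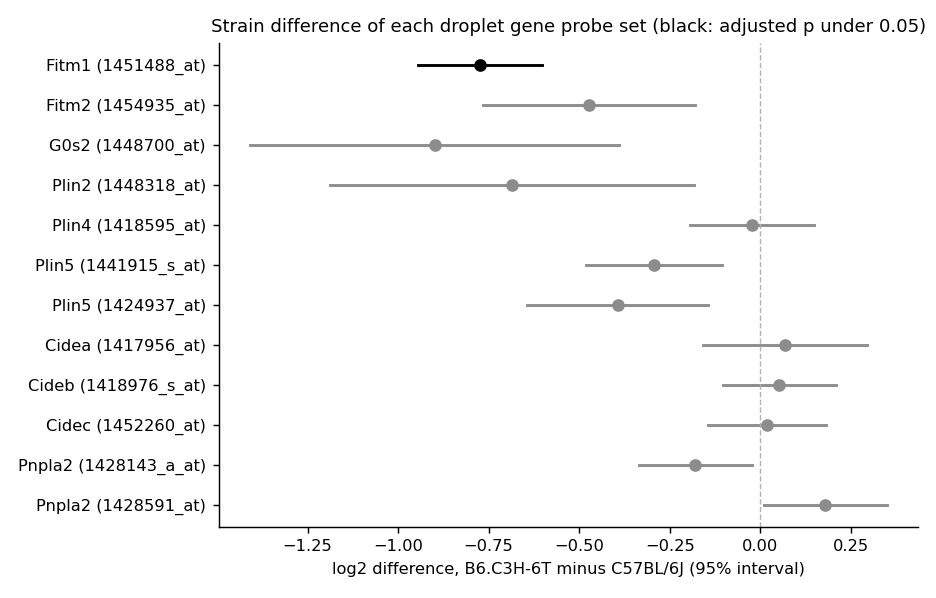
Log2 difference between the strains (B6.C3H-6T minus C57BL/6J) for each of the 12 probe sets, with its 95% interval from limma. Fitm1, in black, is the 1 called probe set, and the intervals of Fitm2, G0s2, Plin2, both Plin5 probe sets and the first of Pnpla2 also lie below 0.

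The FIT genes act at the first step, where droplets leave the endoplasmic reticulum. Fitm1, known mainly from muscle, measured 8.23, 8.33 and 8.09 in the C57BL/6J mice (replicates 1 to 3) and 7.42, 7.42 and 7.48 in the B6.C3H-6T mice. The 3 B6.C3H-6T mice lay close together and far below the lowest C57BL/6J mouse. Fitm1 fell by 0.77 ± 0.08 (SE, 3 mice per strain), from 8.22 ± 0.12 to 7.44 ± 0.04 (SD), or 1.71-fold (limma adjusted p = 0.0116). Its p was the 12th smallest of all probe sets, and with 1 probe set per gene its adjusted p was 0.00795. Without 1 array the difference ran from -0.84 to -0.72, but the call over all probe sets was lost without any of 3 arrays. These were C57BL/6J replicate 1 (limma adjusted p = 0.0632) and, of the congenic strain, replicate 1 (0.0559) and replicate 2 (0.0611).

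Markers of skeletal muscle, the tissue best known for Fitm1, were set beside it. Of 10 measured, 8 were above 0 and 2 below (7 and 3 with centred arrays), 6 lay under the median probe set, and their mean per array was 5.71 to 5.85 in C57BL/6J mice and 5.82 to 5.91 in B6.C3H-6T. At an unadjusted p under 0.05, 1 was higher, Ckm (0.18 ± 0.07), and 0 with centred arrays. The muscle actin gene Acta1 lay between 5.89 and 5.99 on all 6 arrays. A fall may not be detectable in the markers under the median probe set. The amount of muscle tissue in the samples was not tested.

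Fitm2, the FIT gene known from most tissues including fat and liver, measured 8.51, 8.82 and 8.85 in C57BL/6J mice and 8.40, 7.98 and 8.38 in B6.C3H-6T. The strains did not overlap, but replicate 1 of C57BL/6J lay close to replicate 1 of B6.C3H-6T. The difference of -0.47 ± 0.13 did not pass (limma adjusted p = 0.312). Set against each other within each mouse, Fitm1 differed by -0.30 more than Fitm2 (two-sided exact permutation p = 0.2, with 0.1 the smallest possible, and 0.267 adjusted over 4 such contrasts, all chosen after the values were seen).

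**Figure D2:**
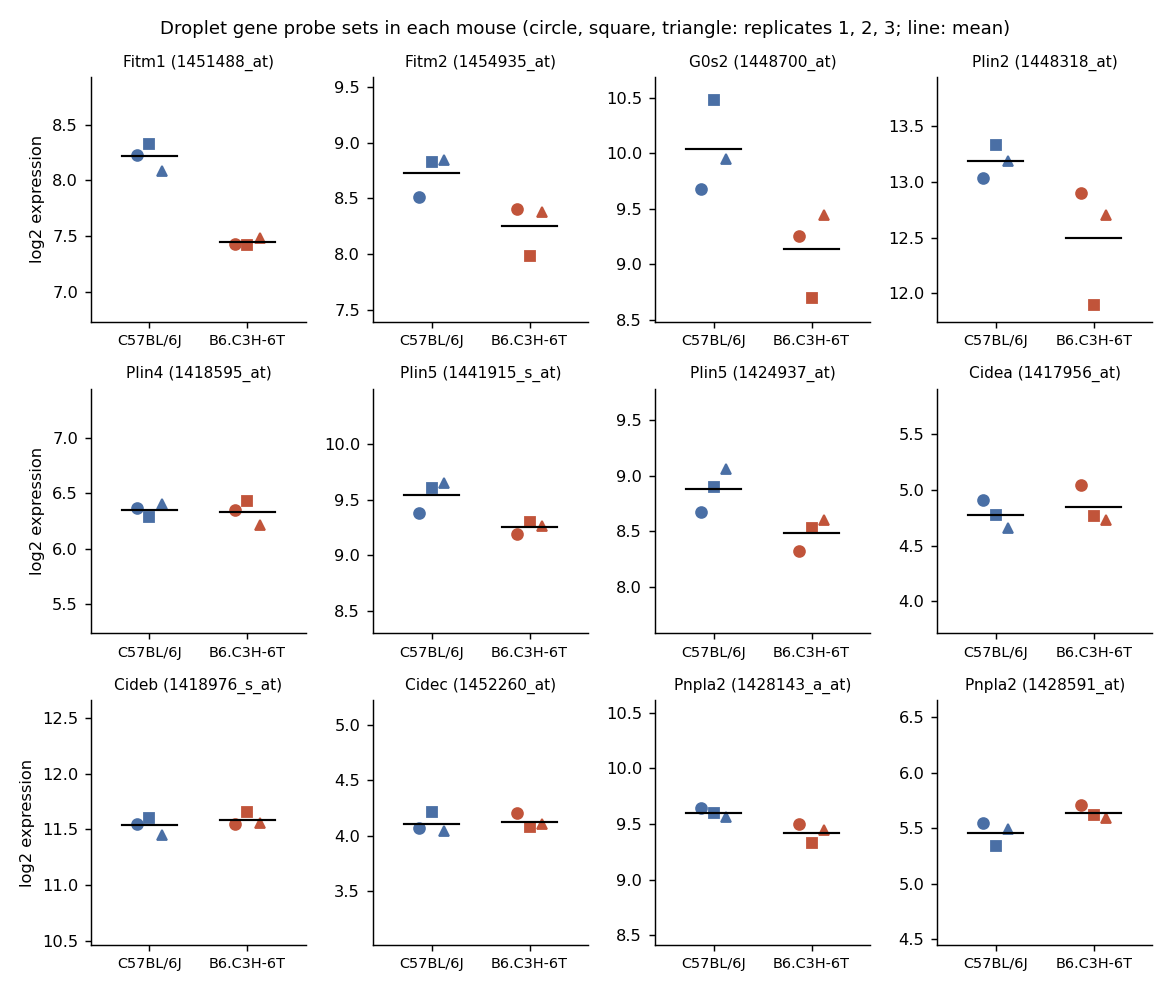
Log2 expression of the 12 probe sets in each mouse, with the same span on every vertical axis; circles, squares and triangles are replicates 1, 2 and 3 of each strain and lines are means. Fitm1 shows the tightest B6.C3H-6T mice far below the C57BL/6J mice, and in Plin2 and G0s2 the B6.C3H-6T square, replicate 2, is the lowest mouse.

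The perilipins differed among themselves. Plin2, the main perilipin of hepatocyte droplets, whose protein is stable only while bound to fat, measured 13.04, 13.33 and 13.19 in C57BL/6J mice and 12.90, 11.89 and 12.71 in B6.C3H-6T. All B6.C3H-6T mice were lower, with replicate 2 by far the lowest and replicate 1 near the lowest C57BL/6J mouse. The difference was -0.69 ± 0.22 (1.61-fold; limma adjusted p = 0.365), and -0.38 without B6.C3H-6T replicate 2. The spread between B6.C3H-6T mice (SD 0.54) was larger than between C57BL/6J mice (SD 0.15).

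Plin5, the perilipin of oxidative tissues that tethers droplets to mitochondria, was read by 2 probe sets with differences of the same sign. The first measured 9.38, 9.61 and 9.65 in C57BL/6J mice and 9.19, 9.30 and 9.27 in B6.C3H-6T, a difference of -0.29 ± 0.08 (limma adjusted p = 0.323). The second measured 8.67, 8.90 and 9.06 against 8.33, 8.53 and 8.60, a difference of -0.39 ± 0.11 (limma adjusted p = 0.319). Neither probe set overlapped between the strains and neither passed. In both, replicate 1 of each strain was the lowest of its strain, and B6.C3H-6T replicate 2 did not stand apart as it did in Plin2. Without 1 array the first probe set ran from -0.38 to -0.24. The difference between the probe sets was -0.10 (two-sided exact permutation p = 0.3, where 0.1 is the smallest possible).

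Plin4, a perilipin of adipocytes and muscle, measured 6.37, 6.29 and 6.40 in C57BL/6J mice and 6.35, 6.43 and 6.21 in B6.C3H-6T. The strains overlapped fully, and the difference was -0.02 ± 0.08 (95% interval -0.19 to 0.15), which crossed 0 when replicate 3 of either strain was left out. Its mean over all arrays was 6.34, near the median probe set mean of 6.10, so a change in a scarce transcript may not be detectable. Plin4 and Plin5 are neighbours on chromosome 17 with no tested gene between them. Within each mouse Plin5 was -0.27 further below its C57BL/6J level than Plin4 (two-sided exact permutation p = 0.2, where 0.1 is the smallest possible, adjusted p = 0.267 over the 4 contrasts).

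The CIDE genes, which act in droplet fusion and lipid transfer, showed no separation between the strains. Cideb, the CIDE gene of hepatocytes that helps to lipidate very low density lipoprotein, measured 11.55, 11.61 and 11.45 in C57BL/6J mice and 11.55, 11.66 and 11.56 in B6.C3H-6T. Its difference was 0.05 ± 0.07 with a 95% interval of -0.10 to 0.21, so that a fall of the size seen in Fitm1 lies outside the interval. Cideb lies on chromosome 14, as does Fitm1, with 15 tested genes between them.

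Cidea, a CIDE gene of brown fat that fatty liver also turns on, measured 4.91, 4.77 and 4.65 in C57BL/6J mice and 5.04, 4.76 and 4.73 in B6.C3H-6T (0.07 ± 0.10, and -0.03 to 0.13 without 1 array). Cidec, also called Fsp27, makes large droplets in fat cells and is a PPAR gamma target in fatty liver. It measured 4.07, 4.22 and 4.04 in C57BL/6J mice and 4.20, 4.08 and 4.11 in B6.C3H-6T, and its difference of 0.02 ± 0.07 became -0.0072 with centred arrays. Both lay well under the median probe set mean of 6.10, and the deposited table has no detection call, so whether they exceed background is unknown and a change in a scarce transcript may not be detectable here.

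Cidec is the only one of the 10 genes on chromosome 6, the chromosome with C3H DNA. Its 10 tested neighbours on each side were mixed: 2 of the 20 were lower at an unadjusted p under 0.05 and 2 higher, where the whole of chromosome 6 gave 8.57% lower and 6.55% higher. The background over all genes was 5.82% lower and 6.36% higher. The 4 were Creld1 (-0.24 ± 0.07), Jagn1 (-0.20 ± 0.08), Prrt3 (0.28 ± 0.11) and Rpusd3 (0.19 ± 0.07), and none passed (limma adjusted p over genes from 0.272 to 0.355). Jagn1 and Rpusd3 are the nearest tested genes on either side of Cidec. Pparg, which encodes the receptor that drives fat storage, lies 24 tested genes from Cidec. A sequence difference between the strains under a probe can change its signal, and this was not tested.

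**Figure D3:**
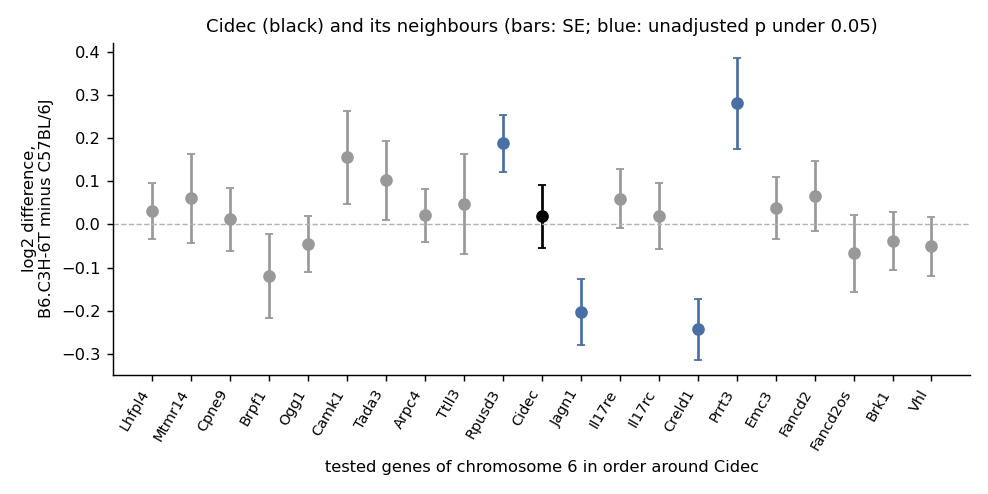
Log2 difference between the strains, with SE bars, for Cidec (black) and the 10 tested genes on each side of it in the gene order of chromosome 6. Jagn1 and Creld1 in blue lie below 0, Rpusd3 and Prrt3 in blue lie above it, and Cidec lies at 0.02.

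Lipolysis is represented by the lipase gene Pnpla2 and its inhibitor gene G0s2. G0s2 had the widest difference of the 10 genes over all 6 arrays, but Fitm1 differed more without replicate 2 of either strain. It measured 9.68, 10.48 and 9.95 in C57BL/6J mice and 9.26, 8.70 and 9.45 in B6.C3H-6T, with all 3 B6.C3H-6T mice below the lowest C57BL/6J mouse. The difference was -0.90 ± 0.22, or 1.86-fold, and did not pass (limma adjusted p = 0.284). Mice of the same strain differed widely, with an SD of 0.41 in C57BL/6J mice and 0.39 in B6.C3H-6T, against 0.12 and 0.04 for Fitm1. Without 1 array the difference ran from -1.08 to -0.68.

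Pnpla2 gave opposite results with its 2 probe sets. The first measured 9.64, 9.60 and 9.56 in C57BL/6J mice and 9.50, 9.33 and 9.44 in B6.C3H-6T, a difference of -0.18 ± 0.07 (limma adjusted p = 0.426). The second measured 5.55, 5.34 and 5.49 against 5.71, 5.62 and 5.59, a difference of 0.18 ± 0.07 (limma adjusted p = 0.450). The strains did not overlap in either. The second lay under the median probe set and the first above it, and the mean of both gave a difference of 0.00016. The contrast between them was 0.36 (two-sided exact permutation p = 0.1, the smallest possible, and 0.267 adjusted over the 4 contrasts). A direction for the Pnpla2 transcript is therefore not given. Without 1 array the first probe set ran from -0.22 to -0.13.

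B6.C3H-6T replicate 2 was the lowest mouse of its strain in 6 of the 10 genes, where it was the lowest in 33.6% of all probe sets. Those genes were Fitm1, Fitm2, G0s2, Plin2, Cidec and Pnpla2, though in Fitm1 it lay with B6.C3H-6T replicate 1. Without it the differences were -0.34 for Fitm2, -0.68 for G0s2, -0.38 for Plin2, -0.32 for Plin5 and -0.13 for Pnpla2, all with the same sign as before. The count of droplet gene probe sets lower at an unadjusted p under 0.05 was then 6 of 12, in place of 7. That of all probe sets was 1287, in place of 2171. The mean of the 10 genes per array was 8.54, 8.71 and 8.58 in C57BL/6J mice and 8.38, 8.15 and 8.33 in B6.C3H-6T.

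**Figure D4:**
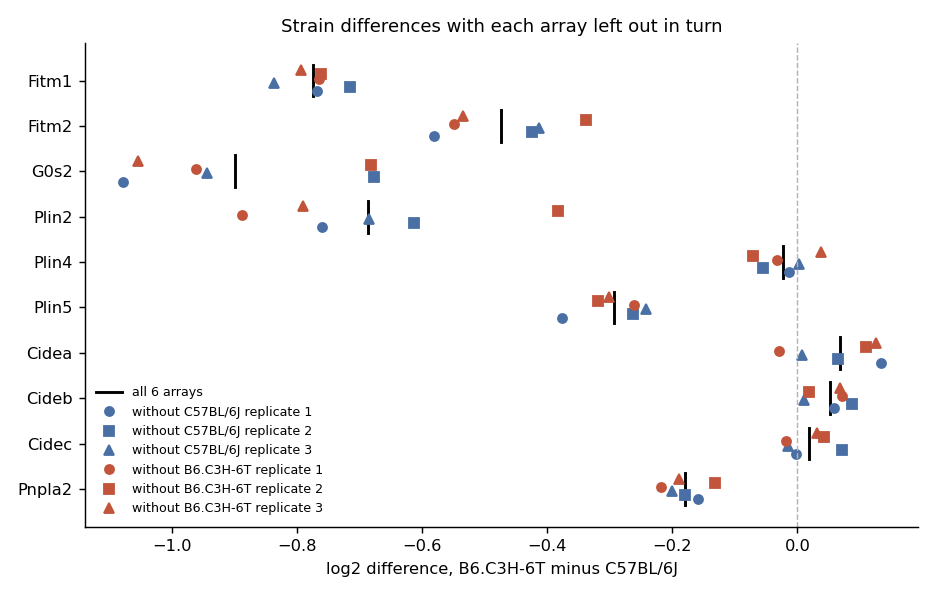
Log2 difference between the strains for each gene (1 probe set per gene) over all 6 arrays (black line) and with each array left out in turn (blue for C57BL/6J arrays, red for B6.C3H-6T arrays). Fitm1, Fitm2, G0s2, Plin2, Plin5 and Pnpla2 stay below 0 throughout, Plin2 lies at -0.38 without B6.C3H-6T replicate 2, and Plin4, Cidea and Cidec cross 0.

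Other genes of the pathway were taken from 5 lists, with 79 measured genes beside the 10. None passed over all genes in limma, where 0.0715% of all genes did. At an unadjusted p under 0.05, 11 were lower and 13 higher, against backgrounds of 5.82% and 6.36%, and their median difference was 0.02, as for all genes. Leaving out C57BL/6J replicate 2 made the lower count 5, and leaving out B6.C3H-6T replicate 2 made it 7. The higher count was 5 in the absence of the latter array, and 5 again when C57BL/6J replicate 3 was dropped. Over all probe sets the lower count was 2171 in the main fit, and 2090 and 1287 without these replicates 2. The higher count over all probe sets was 2584 in the main fit. It was 1652 without B6.C3H-6T replicate 2 and 1501 without C57BL/6J replicate 3. With centred arrays the counts were 11 and 8, where all probe sets gave 3085 lower and 1545 higher. The centred counts of each list below have that same shifted background.

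Among other lipases and their cofactors, 4 of 23 genes were lower at an unadjusted p under 0.05, 1 was higher, and the median was -0.05. Abhd5, whose product activates the Pnpla2 lipase, measured 8.22, 8.13 and 7.94 in C57BL/6J mice and 7.83, 7.97 and 7.87 in B6.C3H-6T. The strains overlapped through B6.C3H-6T replicate 2, and the difference was -0.21 ± 0.08 (limma adjusted p over genes = 0.378). Mgll, the monoglyceride lipase of the last step, differed by -0.33 ± 0.11, Abhd6, another monoglyceride lipase, by -0.33 ± 0.11, and the cholesteryl ester hydrolase gene Nceh1 by -0.52 ± 0.15. None of these passed (limma adjusted p over genes from 0.280 to 0.326). B6.C3H-6T replicate 2 was the lowest mouse in each of them, and the strains overlapped in Mgll.

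Pnpla3, a relative of Pnpla2 whose product sits on droplets, went the other way. It measured 6.76, 6.90 and 6.53 in C57BL/6J mice and 7.06, 8.08 and 7.08 in B6.C3H-6T, a difference of 0.67 ± 0.24 (limma adjusted p over genes = 0.339), with B6.C3H-6T replicate 2 far above the others. Lipe, the hormone-sensitive lipase gene, differed by -0.07 ± 0.08. Hilpda, another inhibitor of the Pnpla2 lipase, differed by 0.00 ± 0.06 with a 95% interval of -0.14 to 0.14. Its mean of 6.10 lay at the median probe set mean, so a change in a scarce transcript may not be detectable.

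Of 17 other genes of the droplet surface and of droplet formation, 1 was lower and 1 higher at an unadjusted p under 0.05. The median was 0.02, and -0.0046 with centred arrays. These were Spg20, the spartin gene (-0.21 ± 0.09), and the acyl-CoA synthetase gene Acsl4 (0.19 ± 0.07). Plin3, the perilipin found in most tissues, differed by -0.05 ± 0.10, the seipin gene Bscl2 by -0.05 ± 0.07 and Hsd17b13, a droplet enzyme of hepatocytes, by 0.10 ± 0.08. Acsl3, which acts on budding droplets, differed by 0.24 ± 0.12, and Aup1 by 0.12 ± 0.08. Plin1 had no probe set paired with it alone and was not analysed here.

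Triglyceride synthesis genes went both ways, with 2 of 16 lower and 5 higher at an unadjusted p under 0.05 (2 and 3 with centred arrays) and a median of 0.11. Gpat3, a glycerol-3-phosphate acyltransferase gene, measured 8.01, 7.68 and 7.98 in C57BL/6J mice and 7.01, 6.76 and 7.43 in B6.C3H-6T, a difference of -0.83 ± 0.16 (limma adjusted p over genes = 0.165). Gpam, the mitochondrial enzyme of the same step, differed by 0.30 ± 0.11 and Agpat1, of the next step, by 0.23 ± 0.08. Lpin1, which makes diacylglycerol, measured 9.20, 8.86 and 9.08 in C57BL/6J mice and 9.83, 11.06 and 9.92 in B6.C3H-6T, a difference of 1.22 ± 0.28 (limma adjusted p over genes = 0.211). B6.C3H-6T replicate 2 was the highest in Lpin1, as in Pnpla3. Dgat1 and Dgat2, of the last step, differed by -0.03 ± 0.09 and 0.22 ± 0.11.

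In triglyceride export 1 of 8 genes was higher at an unadjusted p under 0.05 and none lower, and with centred arrays the higher count was 0. Tm6sf2, which helps to load lipoproteins with fat, differed by 0.23 ± 0.10, and Apoc3, Pla2g12b and P4hb by 0.10 ± 0.07, -0.12 ± 0.09 and 0.09 ± 0.08.

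Of 15 transcriptional regulators 4 were lower and 5 higher at an unadjusted p under 0.05, and 4 lower and 3 higher with centred arrays. Pparg measured 7.54, 7.38 and 7.35 in C57BL/6J mice and 6.60, 6.94 and 6.77 in B6.C3H-6T, a difference of -0.66 ± 0.10 with no overlap (limma adjusted p over genes = 0.0678). Ppara, the receptor of fatty acid oxidation, measured 11.29, 11.42 and 11.25 against 11.19, 10.50 and 10.96. Its difference was -0.43 ± 0.15 (limma adjusted p over genes = 0.327), and B6.C3H-6T replicate 2 was the lowest, as in Plin2 and G0s2. In Pparg the same mouse was the highest of its strain. Creb3l3, a liver factor of fasting lipid metabolism, differed by -0.38 ± 0.12, and Klf15 by 0.51 ± 0.08 (limma adjusted p over genes = 0.108). Pparg and Klf15, like Mgll, Hilpda and Aup1 above, lie on chromosome 6, the chromosome with C3H DNA. A sequence difference under their probes was not tested.

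Markers of other cells that hold droplets were set beside these values. Of 8 macrophage markers none passed over all genes in limma (smallest adjusted p = 0.211). At an unadjusted p under 0.05, 7 of the 8 were lower (all 8 with centred arrays), all 8 were below 0, and their mean per array was 9.28 to 9.56 in C57BL/6J mice and 8.93 to 9.17 in B6.C3H-6T. Clec4f, which defines Kupffer cells and also lies on chromosome 6, measured 10.47, 10.73 and 10.40 against 10.40, 10.05 and 10.35. Their part in the values of Plin2, G0s2, Fitm1, Fitm2 and Plin5 was not tested.

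Adipocyte markers did not go the same way as the droplet genes. Of 7 measured, all were above 0, with a median of 0.09 (0.06 with centred arrays) and a mean per array of 7.44 to 7.57 in C57BL/6J mice and 7.64 to 7.69 in B6.C3H-6T. At an unadjusted p under 0.05, 1 was higher, Fabp4 (0.27 ± 0.11), and 0 with centred arrays. The defining gene Adipoq lay between 4.08 and 4.40, and 3 of the 7 (Adipoq, Lep and Ucp1) lay under the median probe set. Car3 averaged 13.36 in C57BL/6J mice and 13.45 in B6.C3H-6T, so the level of the mean per array rests heavily on it. The difference of Car3 was 0.09 ± 0.07, and the largest of the list was that of Lpl (0.28 ± 0.15). Lpl was also counted among the lipases. The amount of fat tissue in the samples was not tested. Of 10 stellate cell markers, the storage cells of vitamin A, none was at an unadjusted p under 0.05 and 4 were below 0 (1 lower at that p and 7 below 0 with centred arrays), with a mean of 8.02 to 8.27 in C57BL/6J mice and 8.06 to 8.19 in B6.C3H-6T. Their defining gene Lrat differed by 0.18 ± 0.08. Of the 6 hepatocyte markers, 1 was higher at an unadjusted p under 0.05, and their median was 0.02, or -0.0016 with centred arrays.

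**Figure D5:**
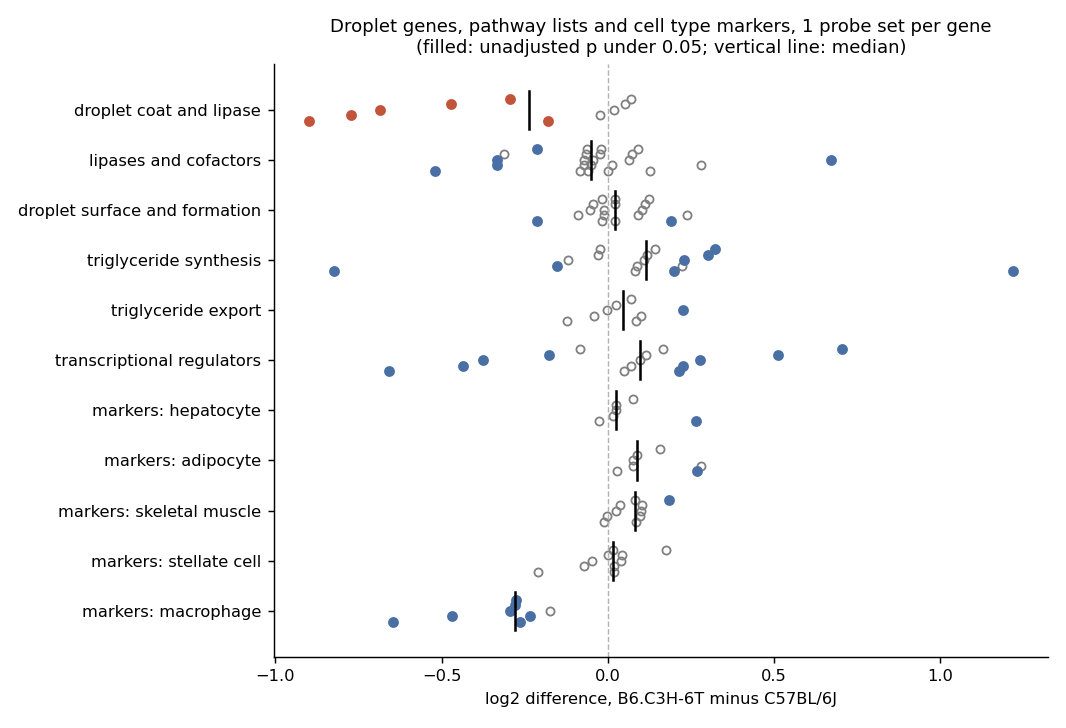
Log2 difference between the strains for the 10 droplet genes (red), the 5 pathway lists and the 5 cell type marker lists (blue), 1 point per gene; filled points have an unadjusted p under 0.05 and vertical lines are medians. The droplet genes and the macrophage markers have medians of -0.24 and -0.28, and the adipocyte and skeletal muscle markers lie mostly above 0.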

How the data were processed

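Liver RNA of 6 mice was measured on Affymetrix arrays, 1 mouse per array, primed from the poly(A) tail, per the labels' protocols. The authors deposited a log2 expression value for each probe set and array, and the submitters' processing notes name RMA and affy (versions not given in the sources used here). Arrays have no read depth, and their number limits the precision. Of 45101 probe sets, 64 controls were left out. Names came from the platform annotation, with symbols updated to RefSeq (GRCm38.p6): 34945 probe sets had 1 gene, 932 several and 9160 none. The strain term was fitted to all 6 arrays in limma 3.58.1 (R 4.3.3) by lmFit with default eBayes, without covariates or a brightness filter, and p was adjusted over 45037 probe sets. Other pathway genes and markers were taken by their probe set of highest mean and adjusted over 18193 genes. Tested on simulated data, the fit made somewhat more false calls than its threshold allows and missed some of the smallest changes. The simulation used the moderated spreads of this same fit, so it cannot show how often larger real changes are missed. In the real data G0s2 (-0.90) and Lpin1 (1.22) did not pass. Replicate numbers follow accession order and only name mice.

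Named genes were all probe sets of the 10 genes, 4 genes of smallest p per pathway list, 13 fixed genes, the defining marker of each cell type, and neighbours of Cidec at an unadjusted p under 0.05. The genes, lists and rules were chosen with earlier results of these data known.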

Additional observations from a re-analysis of the deposited data

How the results depend on the processing

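No paired analysis was possible because the labels give the strains no shared replicate numbers. Without moderated variances Fitm1 kept its difference of -0.77 but missed the threshold (adjusted p = 0.363), so that 0 droplet gene probe sets were called. That fit called 0 probe sets in all, with 3841 at an unadjusted p under 0.05. It left 4 droplet gene probe sets lower and 0 higher, and 4 pathway genes lower and 4 higher. Fitm2, G0s2 and Plin2 then had an unadjusted ordinary t-test p of 0.0530, 0.0507 and 0.0994. The single higher probe set, of Pnpla2, was also lost (0) with centred arrays. The fits of brighter probe sets and of 1 probe set per gene did not include it. Their higher count of 0 therefore says nothing about it. Centred arrays left 8 pathway genes higher and turned Cidec to -0.0072, while the higher count of all probe sets went from 2584 to 1545. The mean of its probe sets turned Pnpla2 to 0.00016. Leaving out 1 array gave -0.84 to -0.72 for Fitm1, -0.072 to 0.037 for Plin4, -0.030 to 0.133 for Cidea and -0.0175 to 0.0718 for Cidec. The droplet gene counts then ran from 0 to 1 called lower, 6 to 7 lower and 0 to 1 higher at an unadjusted p under 0.05, and the pathway counts from 5 to 10 lower and 5 to 13 higher. Over all probe sets the same fits gave 1287 to 2493 lower and 1501 to 2991 higher at that p. Of 199 values recomputed under the alternatives, 167 kept their direction and their side of the threshold, or stayed within 1.5 times for a count. Among the genes only Fitm1 passed in the main fit, so for the rest keeping a side meant not passing. Some alternatives changed only the variances or the probe sets tested, so they could not move a difference. Brightness limits Cidea, Cidec and the second Pnpla2 probe set, and Hilpda and Plin4 lay close to the median probe set. The cause of these shifts was not tested.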
